A study of Bos taurus with 6 samples.

Results

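The cytosolic ribosomal protein genes were followed on a bovine cDNA microarray, a glass slide of spotted complementary DNAs that is read in 2 colours. A gene was taken where the single symbol of a feature in GEO's platform annotation started with RPL or RPS and a digit, or was RPLP0, RPLP1, RPLP2 or RPSA. RPS6K kinases and pseudogenes were left out. This gave 52 genes of the 8397 named genes on the array, 34 RPL genes of the large subunit and 18 RPS genes of the small subunit, on 69 of 12630 features of 1 symbol. All 52 were found in RefSeq under the same symbol. RPS19BP1 meets the rule by its letters but is known as a protein that binds RPS19 and not as part of the ribosome. RPL7L1, a factor of ribosome assembly, was likewise counted with the large subunit by its symbol. A further 6 features that pair a ribosomal symbol with another gene were left out.

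The study was a first test of the array. Total RNA of bovine adrenal tissue was hybridised against adrenal RNA, and RNA of bovine lymph tissue against lymph RNA, so an array compared a tissue with itself. The sources used here do not give the breed, age, sex or treatment of the animals, the kind of lymph tissue, or whether separate animals were used. The p-values therefore measure only how far these arrays differ, which may be technical. 3 arrays were listed for each tissue, but the columns of adrenal 2 and lymph 3 were identical in all 19200 rows. They were counted once, as the shared array, whose tissue is unknown. The adrenal group is therefore arrays 1 and 3 and the lymph group arrays 1 and 2, which with the shared array makes 5 distinct arrays.

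The ribosome translates messenger RNA into protein. Its large subunit forms the peptide bond and holds the tunnel through which the new chain leaves, and its small subunit decodes the messenger. Each mature subunit carries its proteins in fixed proportion, and the genes are expressed at high level in nearly all cell types, adrenal and lymphoid cells included. Their messengers share a pyrimidine-rich start that places their translation under growth signals.

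Each value is the deposited log ratio of the 2 channels after subtraction of the array's median. No source used here names the base of the logarithm, the dye of the numerator or the orientation of the dyes, so a value above 0 does not say which portion of RNA gave more signal. Over all features the SD was lowest on the shared array, at 0.0926, and ran from 0.147 on adrenal 1 to 0.194 on lymph 1 on the others. A ratio between 2 portions of the same tissue holds no expression level. The labelled tissues could therefore not be checked by their markers. In the average of the arrays, marker lists had medians of 0.0061 for adrenal cortex (7 genes), 0.031 for chromaffin cells (9), 0.0038 for T and NK cells (14), 0.063 for B and plasma cells (8), -0.040 for myeloid cells (9) and 0.014 for stroma, endothelium, fat, blood and muscle (16).

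The ribosomal genes lay above 0 more often than not on each array. On adrenal 1, 41 of 52 genes lay above 0, with a median of 0.092, against a median of 0.0043 for all 8318 genes with a value on the 4 tissue arrays. On adrenal 3 the number was 35, with a median of 0.052 against 0.0027. On lymph 1 it was 39 with 0.053 against 0.0064, on lymph 2 40 with 0.062 against 0.0031, and on the shared array 34 with 0.040 against 0.0022. These numbers are 78.8%, 67.3%, 75%, 76.9% and 65.4% of the list in that order. Of all genes, 51.9%, 50.9%, 52.1%, 51.2% and 51.4% lay above 0 on the same arrays. The median of the list lay between 0.040 and 0.092 and averaged 0.060 ± 0.020 (SD, n = 5). The spread within the list was as wide as among all genes on adrenal 1 (SD 0.129 against 0.128) and wider on adrenal 3 (0.301 against 0.160). The wider spread on adrenal 3 rested on the 4 genes under -0.3 there, with RPL27A at -1.70 among them. Without these 4 the SD of the list was 0.133. A list above 0 had been seen in an earlier look at these data, so its direction is a description here.

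**Figure D1:**
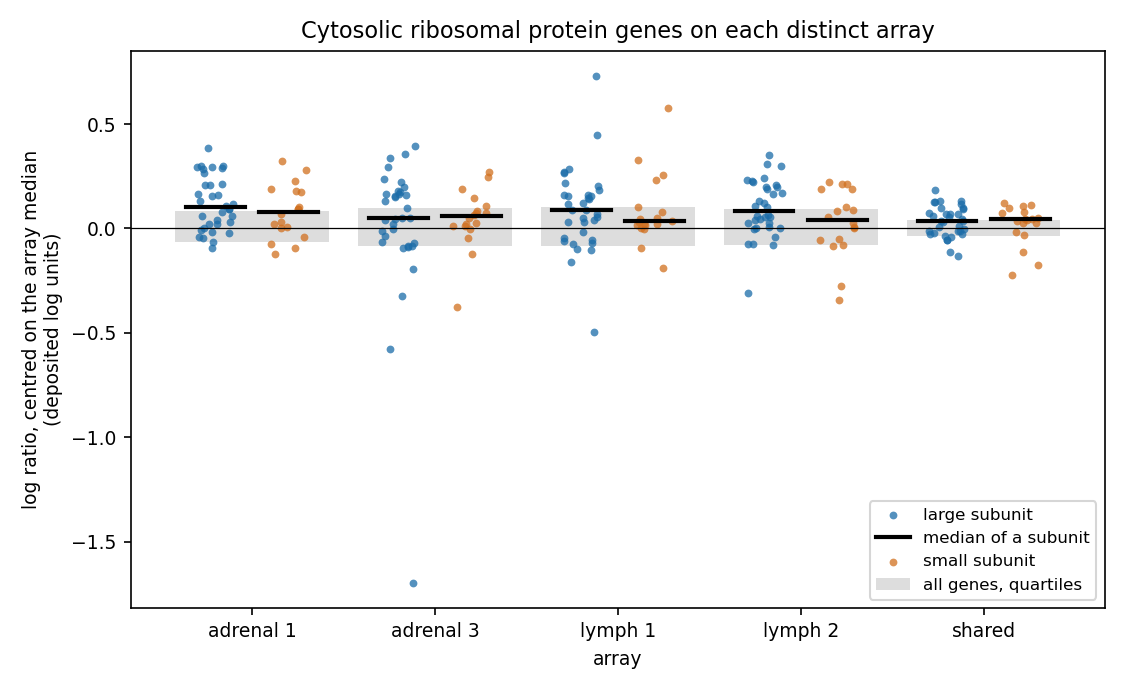
Log ratio of each ribosomal protein gene (vertical axis, deposited log units, centred on the array median) on each distinct array (horizontal axis); points are genes, black bars the median of each subunit, and grey boxes the quartiles of all genes. Both subunit medians lie above 0 on all 5 arrays, and a single gene, RPL27A, stands at -1.70 on adrenal 3.

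In the average of the 5 arrays, 40 of 52 genes lay above 0 (76.9%), against 53.3% of all genes with a value on every array. All 5 arrays were above 0 for 14 ribosomal genes (26.9%), against 7.05% of all genes. They were RPL5, RPL10, RPL11, RPL13, RPL26, RPL28, RPL36A, RPL37 and RPL38 of the large subunit and RPS3A, RPS7, RPS13, RPS14 and RPS16 of the small. RPL18 alone lay below 0 on all 5 (1.92%, against 3.96% of all genes). At least 4 arrays were above 0 for 34 genes (65.4%, against 24.4%). Values beyond 0.5 from 0 on any array were found for RPL7A, RPL27A, RPL38 and RPS13, 4 genes (7.69%, against 2.54%).

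No ribosomal gene passed a test over the whole table. With limma, 0 of 52 genes differed from 0 in the average at an adjusted p under 0.05, as did 0.0% of all 14805 items (genes, and single features where no single symbol was given). The smallest adjusted p among the ribosomal genes was 0.330, shared by RPL13, RPL26, RPL37, RPL38 and RPS7. At an unadjusted p under 0.05, 15 ribosomal genes lay above 0 (28.8%, against 6.54% of all items) and 1, RPS15, lay below (1.92%, against 3.19%), in all 16 genes (30.8%, against 9.73%). The unmoderated test also called 0, with 14 genes at an unadjusted p under 0.05. The 16 with limma were 10 without adrenal 1 and 9 without lymph 2.

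The large subunit is described first. RPL38, which is known for its part in the translation of homeobox messengers during axial patterning, had the highest mean of all ribosomal genes. Its values were 0.29 and 0.29 in adrenal, 0.73 for lymph 1, 0.22 for lymph 2 and 0.096 for the shared array. Lymph 1 was high and the shared array low, and the adrenal values lay between the lymph values. The mean was 0.33 ± 0.24 (SD, n = 5; limma adjusted p = 0.330).

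RPL26, a protein at the rim of the exit tunnel, stood at 0.30 and 0.34 in adrenal, 0.089 and 0.31 in lymph, in the order of their numbers, and 0.047 on the shared array. Lymph 1 and the shared array were low, and the mean was 0.22 ± 0.14. RPL31, another protein near the exit of the tunnel, stood at 0.38 and -0.012 on the adrenal arrays, 0.45 and 0.20 on the lymph arrays and -0.0019 on the shared array. Here adrenal 3 and the shared array lay at about 0, so that the mean of 0.20 ± 0.21 rested on the other three.

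RPL37, a zinc-binding protein, stood at 0.30 and 0.18 in adrenal, 0.27 and 0.30 in lymph and 0.030 on the shared array, with a mean of 0.22 ± 0.11. RPL13 stood at 0.28 and 0.22 in adrenal, 0.16 and 0.11 in lymph and 0.13 on the shared array, with a mean of 0.18 ± 0.073. Its adrenal values lay above its lymph values. RPL28, a large-subunit protein that yeast lacks, stood at 0.30 and 0.13 in adrenal, 0.19 and 0.12 in lymph and 0.058 on the shared array, with a mean of 0.16 ± 0.090. For RPL37 and RPL28, both tissues overlapped and the shared array was lowest.

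RPL5 and RPL11, which bind the 5S ribosomal RNA and hold the p53 regulator MDM2, lay above 0 on every array. RPL5 ranged from 0.034 to 0.19 with a mean of 0.11 ± 0.070, and RPL11 from 0.038 to 0.23 with a mean of 0.13 ± 0.072. RPL36A ranged from 0.033 to 0.17 with a mean of 0.10 ± 0.061. RPLP0, the base of the acidic stalk that recruits elongation factors, stood at -0.016 and 0.36 in adrenal, 0.22 and 0.027 in lymph and 0.010 on the shared array. Its 2 high values came from adrenal 3 and lymph 1, so the tissues overlapped fully.

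At the low end of the large subunit stood RPL27A, with values of 0.021 for adrenal 1, -1.70 for adrenal 3, -0.10 and 0.0031 for the lymph arrays and 0.13 for the shared array. Only adrenal 3 lay far from 0, and the mean was -0.33 ± 0.77. RPL7A, of the L7Ae family of RNA-binding proteins, stood at 0.061, -0.58, -0.071, 0.056 and 0.13 in the same order and was also lowest on adrenal 3. Both features have neighbouring numbers on the array, 18565 and 18550. On adrenal 3, the 25 features on each side of the RPL27A feature had a median of -0.11. Of the 43 with a value 7 lay under -0.5, the RPL7A feature among them. The share of all features under -0.5 on adrenal 3 was not counted. RPL9 and feature 7475 of RPS15A were also low on adrenal 3. Their neighbours had medians of 0.0059 and -0.020 there, with 0 under -0.5. The part of a feature's neighbours in the values was not tested.

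RPL18 stood at -0.0053 and -0.091 in adrenal, -0.053 and -0.074 in lymph and -0.037 on the shared array, with a mean of -0.052 ± 0.033. RPL15 ranged from -0.083 on adrenal 3 to 0.039 on lymph 2, with a mean of -0.025 ± 0.045. RPL22, whose loss blocks a stage of T cell development in mice, stood at -0.064 and -0.00082 in adrenal, -0.16 and 0.026 in lymph and -0.13 on the shared array. RPL15 was higher in both lymph arrays than in both adrenal arrays, and the tissues overlapped for RPL18 and RPL22.

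In the small subunit, RPS13 and RPS7 had the highest means. RPS13 stood at 0.18 and 0.052 in adrenal, 0.58 and 0.22 in lymph and 0.11 on the shared array, so that the lymph values lay above the adrenal values. Its mean was 0.23 ± 0.21. RPS7, which is needed early in subunit assembly, stood at 0.32 and 0.27 in adrenal, 0.25 and 0.19 in lymph and 0.098 on the shared array. Its mean was 0.23 ± 0.087, and its adrenal values lay above its lymph values. RPS3A, RPS14 and RPS16 also lay above 0 on every array, with means of 0.15 ± 0.072, 0.073 ± 0.048 and 0.081 ± 0.098.

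RPS15, a protein of the subunit's head that is needed for nuclear export, lay lowest in the small subunit. It stood at -0.094 and 0.022 in adrenal, -0.19 and -0.34 in lymph and -0.11 on the shared array, with a mean of -0.14 ± 0.13. Both lymph values lay below both adrenal values. RPS12 stood at -0.073 and 0.11 in adrenal, 0.019 and -0.28 in lymph and -0.22 on the shared array, with a mean of -0.090 ± 0.16 and no order by tissue. RPSA, known also as the laminin receptor precursor, varied little, from -0.018 on the shared array to 0.072 on adrenal 3, with a mean of 0.020 ± 0.033.

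**Figure D2:**
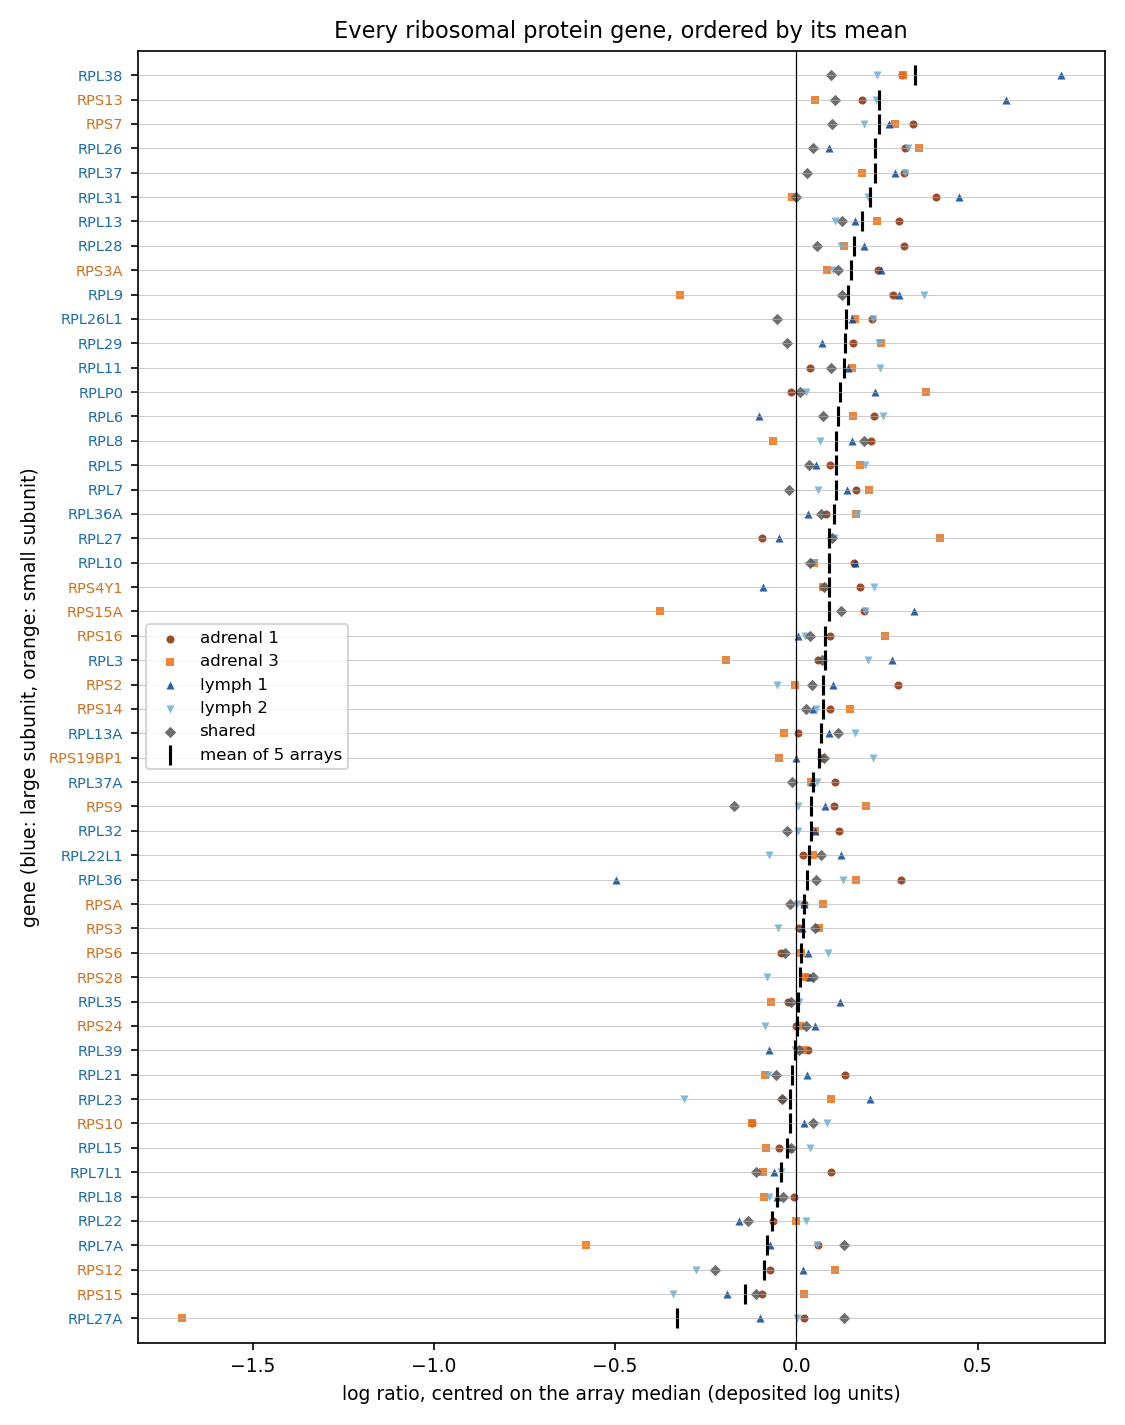
Log ratio (horizontal axis, deposited log units, centred on the array median) of each of the 52 genes (vertical axis, ordered by mean, RPS19BP1 coloured with the small subunit by its symbol) on the 5 distinct arrays; black ticks are means. Means run from -0.33 for RPL27A to 0.33 for RPL38, and for RPL38, RPS7, RPL26, RPL37, RPL31 and RPL28 the shared array lies closest to 0.

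The large subunit was set against the small on each array. The median of the large subunit minus that of the small was 0.021 and -0.0078 in adrenal, 0.054 and 0.045 in lymph and -0.0084 for the shared array. The mean difference of 0.021 ± 0.029 (SD, n = 5) was smaller than the spread between arrays, and it lay above 0 on 3 of 5. It was 0.013 without lymph 1. Without the 4 genes under -0.3 on adrenal 3 it was 0.039 ± 0.034 by medians, above 0 on 4 of 5. By means it was 0.036 ± 0.025, above 0 on 5 of 5, and both were larger than the spread. Those genes, RPL7A, RPL9 and RPL27A of the large subunit and RPS15A of the small, were picked after their values were seen. That choice itself raises the difference on adrenal 3, from -0.0078 to 0.033 by medians, so no conclusion is drawn from it. Over all members the median difference was 0.0066 ± 0.020 for the adrenal pair and 0.050 ± 0.0063 for the lymph pair (SD, n = 2). The adrenal value was -0.0078 without adrenal 1 and -0.013 over single features, and the lymph value was 0.030 with the shared array in lymph. Taken over means in place of medians the difference was 0.018 ± 0.040, with -0.037 on adrenal 3, the array with RPL27A at -1.70. Without RPS19BP1 and the paralogs RPL7L1, RPL22L1, RPL26L1 and RPS4Y1 the median difference was 0.035 ± 0.040. This left 31 large and 16 small subunit genes.

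By gene, 25 of 34 large subunit genes and 15 of 18 small subunit genes had a mean above 0, against 53.3% of all genes. On all 5 arrays, 9 of 34 and 5 of 18 lay above 0, against 7.05% of all genes. At an unadjusted limma p under 0.05 in the average, 12 of 34 large and 3 of 18 small subunit genes lay above 0, against 6.54% of all items. Below 0 at this p lay 0 large subunit genes and 1 small subunit gene, RPS15, against 3.19% of all items. Whether these shares differ between the subunits was not tested.

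The values of the members differed between runs of the array's numbering. Of the 69 features, 15 lay between numbers 18209 and 18867, the last run of members, and had sequence records that begin with BG. On adrenal 3 these 15 had a median of -0.060 with 5 above 0, and all 733 such features a median of -0.051. The 31 member features of the BE run had a median of 0.14 and all 5832 features of that run 0.0080. The member features of the AW run had a median of 0.082. Those of the BF run also lay near 0, at 0.0045 with 4 of 8 above 0. On the shared array the 15 BG features had a median of 0.052. Without the BG features the large minus small difference became 0.053 in the average and 0.082 in adrenal, and the adrenal median of the list 0.12 in place of 0.079. Of the 15 BG features 13 belonged to large subunit genes and 2 to small, and the part of the BG run in the comparison of subunits was not tested.

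In adrenal against adrenal, 0 of 52 ribosomal genes passed with limma (0.0% of all items), with a smallest adjusted p of 0.534. At an unadjusted p under 0.05, 9 lay above 0 (17.3%, against 5.26% of all items) and 1, RPL27A, below (1.92%, against 2.14%), together 10 (19.2%, against 7.4%). Those above were RPL7, RPL13, RPL26, RPL26L1, RPL28, RPL29, RPL37, RPL38 and RPS7. RPL26 stood at 0.32 ± 0.086 (SE, n = 2) and RPS7 at 0.30 ± 0.078, where the SE is limma's, drawn from both tissues and towards that of all items. Without adrenal 3 the number at an unadjusted p under 0.05 was 5 in place of 10. Without adrenal 1, RPL27A was called from its 1 remaining adrenal value (limma adjusted p = 0.0046), as 1 of 9 items called in that fit.

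In lymph against lymph, 0 of 52 passed with limma (0.0% of all items), with a smallest adjusted p of 0.609. At an unadjusted p under 0.05, 10 lay above 0 (19.2%, against 5.13%), which were RPL3, RPL9, RPL11, RPL26, RPL26L1, RPL31, RPL37, RPL38, RPS7 and RPS13. RPS15 was the 1 gene below 0 (1.92%, against 2.62%), which made 11 (21.2%, against 7.75%). The total of 11 was 4 without lymph 1 and 6 without lymph 2, and 4 with the unmoderated test. RPL26, RPL26L1, RPL37, RPL38 and RPS7 were in both tissues' sets. The share of all items in both sets was not counted. Both sets come from the same fit with 1 spread per gene, so the overlap is not an independent repeat.

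Lymph minus adrenal was tested in the same fit, and 0 of 52 genes differed (0.0% of all items), with a smallest adjusted p of 0.932. RPL3, a protein of the peptidyl transferase centre, was the 1 gene at an unadjusted p under 0.05, with lymph higher (1.92%, against 2.52% of all items), and 0 genes were lower (0.0%, against 2.33%; both directions 4.85%). RPL3 stood at 0.060 and -0.19 in adrenal and 0.26 and 0.20 in lymph. Without adrenal 3, 0 genes reached this p, without adrenal 1, 6 did, and without lymph 2, 3 did. The adrenal and lymph arrays did not overlap for 19 of 52 genes (36.5%), against 33.3% of all genes, a share near the background. The median difference over the 52 genes was -0.029, against -6.96e-05 for all genes, and 18 lay above 0 (34.6%, against 50% of all genes). Their mean difference lay on the other side of 0, at 0.016, with an SD of 0.179 over genes. That mean was -0.019 without the 4 genes under -0.3 on adrenal 3. The median difference was -0.0019 without adrenal 1 and -0.0088 without lymph 2. Without adrenal 1, RPL27A was called here as well (1.65, limma adjusted p = 0.024), as 1 of 7 items called.

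The arrays were compared over the ribosomal genes, whose points share the printed features and, within an array, the hybridisation. Over the 52 genes, Pearson's r of the 10 pairs of distinct arrays ranged from -0.22 to 0.58 with a mean of 0.27, and Spearman's rho from -0.058 to 0.57 with a mean of 0.32. An r above 0 was found for 9 of the 10 pairs, and the pair of adrenal 3 and the shared array had -0.22. Without RPL7A, RPL9, RPL27A and RPS15A, the 4 genes under -0.3 on adrenal 3 (7.69%, against 2.78% of all genes), that pair had 0.14. All 10 pairs then had an r above 0, from 0.14 to 0.56 with a mean of 0.33. These 4 genes were picked after their values on adrenal 3 were seen, so no conclusion is drawn from leaving them out. Over all genes, with no such genes left out, the mean r was 0.080, from -0.0013 to 0.18. The adrenal means and the lymph means of the 52 genes, which share no array, had an r of 0.36 and a rho of 0.44, against 0.17 and 0.17 over 8318 genes. These are descriptions across genes, which are not independent replicates.

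For 5 of 52 genes (9.62%, against 7.44% of all genes) 1 array lay past Dixon's critical value, a share near the background. RPS15A was among them and RPL9 and RPL36 were not. They are named here for their values. RPL9 stood at 0.27 on adrenal 1, -0.32 on adrenal 3, 0.28 and 0.35 on the lymph arrays and 0.13 on the shared array. RPS15A and RPL36 were each spotted on 2 features, and only 1 feature of each was low. Feature 7475 of RPS15A stood at -0.96 on adrenal 3 and its feature 11480 at 0.20. Feature 6698 of RPL36 stood at -1.01 on lymph 1 and its feature 17901 at 0.018. On the other 4 arrays the features of RPS15A lay between 0.083 and 0.51.

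Repeat features of a gene often lay apart. Of the 52 genes, 37 had 1 feature, 13 had 2 and 2 had 3. For 13 genes with repeat features and no empty cell, the gap between the highest and the lowest feature mean had a median of 0.105, from 0.0015 for RPL7L1 to 0.32 for RPS15A. Over all 3070 such genes the median was 0.089. The features lay on the same side of 0 in 4 of the 13 genes (30.8%), against 42.6% of all such genes.

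RPL10 and RPL35 had 3 features each. RPL10, which joins the large subunit late, stood at 0.16 and 0.049 in adrenal, 0.16 and 0.045 in lymph and 0.037 on the shared array. Its features 812, 5569 and 18683 had means of 0.097, 0.21 and -0.030. Feature 5569 lay above 0 on all 5 arrays, and feature 18683 reached -0.24 on adrenal 3. RPL35, a protein at the tunnel exit, had means of 0.0099, 0.053 and -0.051 on features 1843, 11070 and 18854. On lymph 1 the first pair stood at 0.28 and 0.26 and the last at -0.18. The features of RPS14 lay closer together, at means of 0.083 and 0.064, and those of RPL32 at 0.13 and -0.055.

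**Figure D3:**
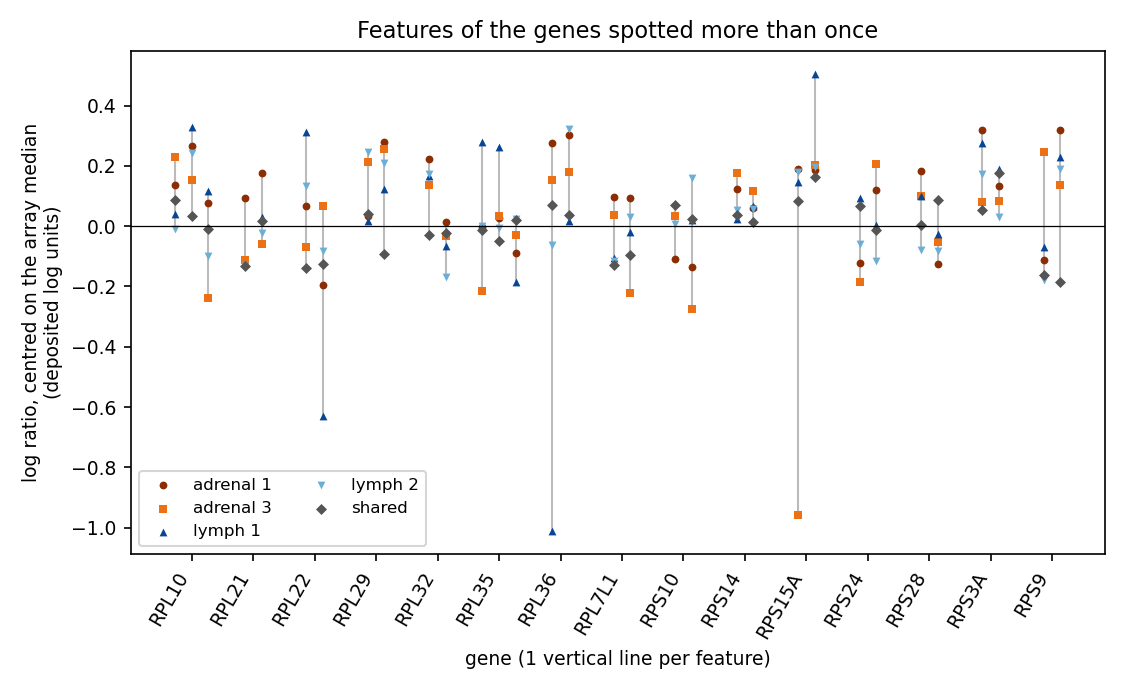
Log ratio (vertical axis, deposited log units, centred on the array median) of each feature of the 15 ribosomal genes with over 1 feature (horizontal axis); each vertical line is 1 feature and joins its lowest and highest array. One feature of RPL36 on lymph 1 and one of RPS15A on adrenal 3 stand at -1.01 and -0.96, while the other feature of each gene stands at 0.018 and 0.20.

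Paralogs were set beside their parent genes. RPL26L1 stood at 0.21 and 0.16 in adrenal, 0.15 and 0.21 in lymph and -0.054 on the shared array. RPL26 minus RPL26L1 was 0.080 ± 0.088 (SD, n = 5), smaller than the spread. RPL7 exceeded RPL7L1, a factor of ribosome assembly, on all 5 arrays, by 0.15 ± 0.094. RPL7L1 itself stood at 0.095 and -0.093 in adrenal, -0.062 and -0.042 in lymph and -0.11 on the shared array. RPL22 minus RPL22L1, its close copy, was -0.10 ± 0.15. Near-identical sequences can share signal on a cDNA array, and the parts of each copy in these values cannot be told apart.

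Other lists of protein synthesis were set beside the ribosomal genes. In the average of the 5 arrays, the 64 mitochondrial ribosomal protein genes had a median of 0.0024 with 34 above 0, against 0.073 with 40 of 52 for the cytosolic genes and 0.0049 for all genes. The 30 ribosome assembly factors had 0.023 with 20 above 0, and the 31 initiation factors 0.0072 with 18 above 0. The 8 genes listed as elongation and release factors had 0.041 with 5 above 0, and the 15 aminoacyl-tRNA synthetases -0.050 with 5 above 0. The list of 8 also holds NACA, its highest gene, which is not such a factor. With limma, 0 genes of each list passed in the average, where 5 mitochondrial ribosomal genes, 4 assembly factors, 3 initiation factors, 2 elongation and release factors and 1 synthetase had an unadjusted p under 0.05, beside 9.73% of all items. Over arrays, the list medians averaged 0.025 ± 0.016 for mitochondrial ribosomal proteins, 0.025 ± 0.017 for assembly factors, 0.011 ± 0.025 for initiation factors, 0.048 ± 0.018 for elongation and release factors and -0.0094 ± 0.0079 for synthetases, against 0.060 ± 0.020 for the cytosolic ribosomal genes.

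**Figure D4:**
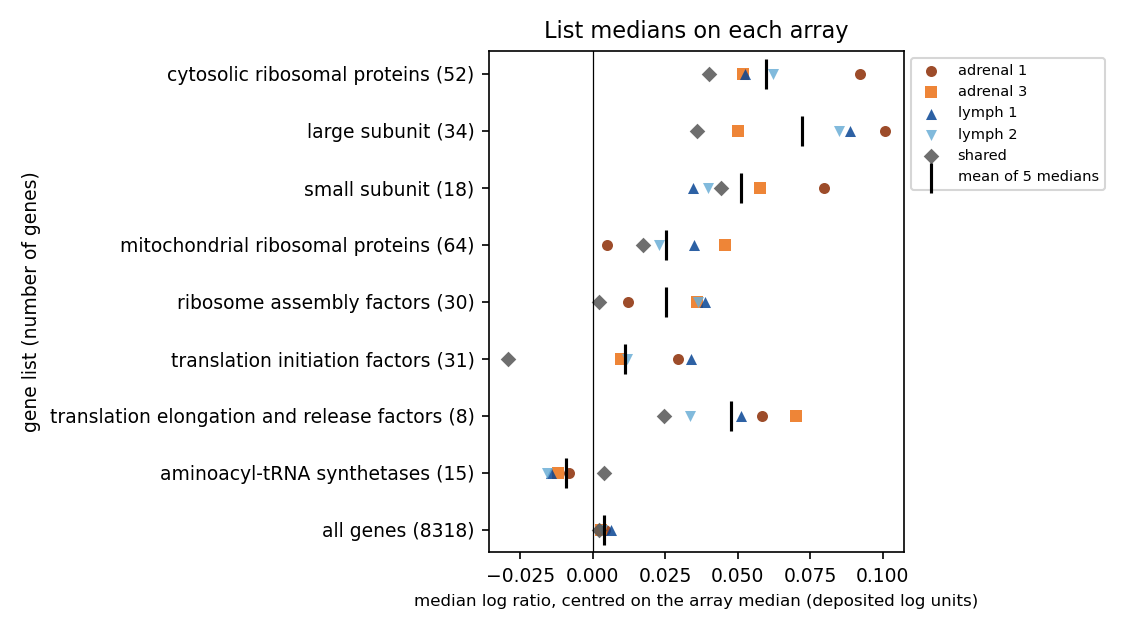
Median log ratio (horizontal axis, deposited log units, centred on the array median) of each gene list (vertical axis, number of genes in parentheses) on the 5 distinct arrays; black ticks are the mean of the 5 medians. The cytosolic ribosomal list lies to the right of all genes on each array. Its medians start at 0.040 on the shared array. The list of elongation and release factors overlaps this range, as does that of mitochondrial ribosomal proteins, with 0.046 on adrenal 3. The large and small subunit lists are parts of the cytosolic list.

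The ends of these lists varied by array. MRPS30 ranged from 0.058 to 0.43 and GNL3, a nucleolar GTPase, from 0.044 to 0.26, both above 0 on all 5 arrays. NACA, which guards new chains at the ribosome, ranged from 0.042 to 0.31. EIF3E, a subunit of initiation factor 3, stood lowest at a mean of -0.30, with -0.94 on lymph 2. MRPL37 stood at -0.98 on the shared array and from -0.066 to 0.31 on the others.

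2 proteins of the small subunit have symbols outside the rule. FAU, which codes for a ubiquitin-like protein fused to RPS30, stood at 0.32 and 0.34 in adrenal, 0.32 and 0.23 in lymph and 0.040 on the shared array, with a mean of 0.25 ± 0.12. RACK1, a signalling scaffold on the small subunit, stood at 0.19 and -0.0061 in adrenal, 0.47 and 0.16 in lymph and 0.046 on the shared array, with a mean of 0.17 ± 0.18. FAU lay above 0 on all 5 arrays and RACK1 on 4, and neither passed with limma (adjusted p = 0.330 and 0.460). The shared array lay closest to 0 for FAU, and adrenal 3 for RACK1.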

How the data were processed

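The deposited table held 1 log ratio per feature and array, of unstated base, for 19200 features in 6 columns. Not given in the sources used here: scanner, background correction, normalisation and dyes. Medians of the columns lay between -0.011 and 0.0017, and 0 values were exactly 0. Arrays were centred on their medians. Features with the same single symbol were averaged on each array; where a feature was empty (1 of RPL21 and 1 of RPS10 on lymph 1) the other feature stood for the gene. Items needed a value on the 4 tissue arrays, which all 52 members had. limma 3.58.1 in R 4.3.3 (lmFit, eBayes) was run with two-sided p-values, adjusted by Benjamini-Hochberg over 14805 items: adrenal, lymph and their difference on 4 arrays, and the average on 5 arrays. The fit was tested on simulated data. Members and lists were chosen with earlier results of these data known. Members were named where they were among the 8 highest or 8 lowest by mean, beyond 0.5 on any array, on 3 or more features, RPLP0 or RPSA, or on 1 side of 0 on all 5 arrays; from each other list at most the highest and the lowest gene. RPL3, RPL9, RPL32, RPS15A, RPL36, the paralogs, RPS19BP1, FAU, RACK1 and other genes given by test results were named outside this rule. Medians of lists and the difference between subunits were described without a test. Python 3.11.15, pandas 2.3.3, numpy 2.4.6 and matplotlib 3.10.9 were used for summaries and plots. The number of arrays limits the precision.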

Additional observations from a re-analysis of the deposited data

Results flagged for a closer look

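Each of the 52 genes was examined over the 5 distinct arrays for an array far from the nearest other (Dixon's 95% critical value, which chance passes for about 1 in 20 groups). 5 genes had one (9.62%, against 7.44% of all genes). RPL27A stood at -1.70, RPL7A at -0.58 and RPS15A at -0.38 on adrenal 3. RPL26L1 stood at -0.054 on the shared array and RPS28 at -0.081 on lymph 2.

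3 genes (5.77%, against 11.0% of all genes) had both adrenal arrays on 1 side of 0 and both lymph arrays on the other. Lymph minus adrenal was 0.11 for RPL35, -0.065 for RPL39 and 0.18 for RPS10. With limma none of these 3 differences passed (adjusted p = 0.956, 0.977 and 0.937).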

How the results depend on the processing

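Alternatives were other centring, scaling and averaging, single features, other filters and items, other members, the shared array in either tissue, all 6 columns, other spread estimates, a threshold of 0.1 and each array left out. Chosen after seeing the data were leaving out the 4 genes lowest on adrenal 3 and leaving out the BG features. The count of called ribosomal genes stayed at 0 in lymph and in the average under all 24, and in adrenal and in the difference leaving out single arrays gave 0 to 1 (RPL27A, without adrenal 1). The adrenal median of 0.079 became 0.047 with the shared array in adrenal, 0.047 on all 6 columns with or without the replicate block, 0.052 to 0.092 with 1 array left out, 0.0999 without the 4 lowest genes and 0.121 without the BG features, where the lymph median became 0.081. The median difference stayed below 0 under all 24, at -0.0019 with the shared array in adrenal and from -0.047 to -0.0019 with 1 array left out. The mean difference over the genes was 0.016 in the main setting, on the other side of 0. The large minus small difference ranged from 0.0094 to 0.053 in the average, with 0.053 without the BG features, from -0.013 to 0.082 in adrenal, with 0.082 without them, and from 0.030 to 0.069 in lymph. The number of genes above 0 on all arrays ranged from 13 to 21, with 15 to 21 when 1 array was left out. Fewer arrays then had to lie above 0, so that count could only stay or rise. It was 19 when features were counted singly, which is a number of features and not of genes. The cause of the other changes was not tested. Pairing by replicate number was not open to a check, since 1 column carries number 2 in adrenal and number 3 in lymph; with the replicate block 0 ribosomal genes were called in each comparison. Signal over background was not used here.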
